A study of Mus musculus with 3 samples.

Results

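Chromatin accessibility was described around 10 genes of the retinoic acid pathway in 3 ATAC-seq samples of mouse epiblast-like cells. ATAC-seq reads out where a transposase can cut nuclear DNA, and each sample was deposited as 1 list of broad peaks. A peak was taken when it overlapped the body of a member gene or the 50 kb on either side of it. This gave 115 of the 129843 SOX2-ON peaks, 115 of the 131520 SOX2-OFF peaks and 126 of the 130348 CEpiLC peaks. Overlapping peaks of the 3 lists were merged into 178 regions, out of 219488 over the whole genome. The windows of Cyp26a1 and Cyp26c1, which are neighbours on chromosome 19, were largely the same.

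All samples came from HM1 TetON embryonic stem cells, of strain HM1 (129), or a line made from them, at 72 h of differentiation, in medium with 10 ng/ml bFGF and 5 uM of the WNT secretion inhibitor LGK974. The WNT agonist CHIR99021 was added after 2 days. SOX2-ON and SOX2-OFF were both the Sox2-/- SOX2 TetON line, in which the endogenous Sox2 gene was ablated and a doxycycline-inducible Sox2 transgene sits at the Hprt locus. The transactivator that drives it is expressed from Rosa26 in the parental HM1 TetON line. In SOX2-ON, doxycycline at 1 ug/ml was kept during differentiation, and in SOX2-OFF it was withdrawn. CEpiLC, the caudal epiblast-like cells, were the parental line, wild-type for Sox2, and received no doxycycline, so CEpiLC differed from the other groups in line as well as in SOX2. Each group had 1 sample of 50000 cells, so no difference below has a replicate check and no test between conditions was possible.

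Retinoic acid is a diffusible signal made from vitamin A. RDH10 oxidises retinol to retinaldehyde, DHRS3 reduces it back, and ALDH1A2 turns it irreversibly into retinoic acid. CRABP2 carries the acid to the nucleus, where the receptors RARA, RARB and RARG bind DNA with RXR partners. The CYP26 enzymes degrade it and keep the caudal end of the embryo low in retinoic acid while the trunk is laid down, and Rarb and Cyp26a1 are classic targets of the receptors themselves.

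The receptors bind direct repeats of a hexamer, most typically with 5 bases between the half-sites (DR5). The half-site AGGTCA was searched together with the half-site AGTTCA, the half-site GGGTCA and the half-site GGTTCA, in any combination and on either strand. A DR5 occurred 4 times in the 178 regions. The 4 places are shown because repeats of this kind are known as binding sites of the pathway's receptors. Each is written on the strand that reads the repeat in this direction, on mm10, with the half-sites in capitals. The Rarb site is given with few flanking bases because it lies in an annotated exon of Rarb, 22 bases downstream of a start.
Rarb, chr14:16575507-16575535, minus strand: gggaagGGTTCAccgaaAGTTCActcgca
Cyp26a1 near the start, chr19:37697716-37697797, minus strand: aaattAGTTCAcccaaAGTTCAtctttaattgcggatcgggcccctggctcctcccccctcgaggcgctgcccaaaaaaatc
Cyp26a1 further upstream, chr19:37695849-37695985, plus strand: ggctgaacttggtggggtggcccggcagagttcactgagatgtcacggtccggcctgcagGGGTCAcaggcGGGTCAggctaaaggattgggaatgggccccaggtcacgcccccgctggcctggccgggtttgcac
Rara, chr11:98959948-98960084, plus strand: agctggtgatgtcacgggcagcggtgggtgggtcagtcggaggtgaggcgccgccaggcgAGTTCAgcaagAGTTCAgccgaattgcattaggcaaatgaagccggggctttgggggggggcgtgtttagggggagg

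The sites at Rarb, at the start of Cyp26a1 (14 bases upstream) and at a start inside Rara (396 bases upstream) lay within a peak of all 3 lists. The site 1881 bases upstream of the Cyp26a1 start lay within a peak of SOX2-OFF and of CEpiLC, and no SOX2-ON peak covered it. Whole regions with a DR5 made up 2.25% of the member regions and 0.362% of all regions, but regions differ in length. In windows of equal length, the promoters of RefSeq (GRCm38, 250 bases before to 50 after a start), 0.0974% of 32851 entries held a DR5, against 2 of the 14 entries of the members, those of Cyp26a1 and Rarb. Rarb and Cyp26a1 are classic targets of the receptors, so neither contrast is a test of enrichment. A match of letters is a description and says nothing of binding.

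Another set of sequences comes from the introns of Rarb and Aldh1a2, where peaks of SOX2-ON had no counterpart in CEpiLC. The central 250 bases are given on the plus strand of mm10. Capitals mark every match to the motifs searched, here SOX (AACAATG, with the variant AACAAAG), TCF/LEF (CTTTGAT, with the variant CTTTGAA) and the motif of GATA factors (AGATAA), on either strand.
Rarb intron, chr14:16572912-16573161: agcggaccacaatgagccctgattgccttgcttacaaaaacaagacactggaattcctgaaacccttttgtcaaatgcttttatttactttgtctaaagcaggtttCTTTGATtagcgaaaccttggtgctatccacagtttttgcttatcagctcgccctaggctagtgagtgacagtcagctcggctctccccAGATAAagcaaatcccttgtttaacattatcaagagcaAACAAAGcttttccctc
Aldh1a2 intron, chr9:71231931-71232180: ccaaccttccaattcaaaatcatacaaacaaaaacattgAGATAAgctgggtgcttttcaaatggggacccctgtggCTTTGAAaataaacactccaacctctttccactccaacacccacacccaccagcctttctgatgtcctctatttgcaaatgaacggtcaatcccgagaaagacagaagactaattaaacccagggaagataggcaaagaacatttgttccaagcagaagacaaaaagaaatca

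Peak strength is given as a percentile rank within the sample's own list, ordered by −log10 p, where 100 is the strongest peak. Fold enrichment is the pileup of reads over the caller's local background. The −log10 p grows with depth and the fold depends on the background in each library, and the depth was not known, so fold enrichments are given as a description of each list and comparisons rest on ranks. At rank 20000 the −log10 p of SOX2-ON was 26.4, that of SOX2-OFF 21.2 and that of CEpiLC 10.6, so a peak missing from a list was not detectable there at that depth and enrichment, which differs from closed chromatin. The lists also differed by chromosome. SOX2-ON and SOX2-OFF had 128 and 135 peaks per Mb on chromosome 6 and 125 and 123 on chromosome 8, and CEpiLC had 180 on chromosome 11, against 31.9 to 60.7 on the other 16 autosomes in any list. Cyp26b1 lies on chromosome 6 and Rara on chromosome 11. All 5 epiblast markers (Pou5f1, Sox2, Fgf5, Dnmt3b and Utf1) and all 5 caudal epiblast and streak markers (T, Cdx2, Nkx1-2, Fgf8 and Wnt3a) had a peak within 1 kb of a start in every list, as had 4 of 5 fibroblast genes, all but Lum. Of the 5 blood genes, 3 had one in SOX2-ON and 2 in each other list, none above percentile 51.5. A peak at a start therefore did not separate the fibroblast genes from the epiblast genes here.

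Every member gene had a peak within 1 kb of a start in all 3 lists. Among all 21911 coding genes the share was 74.9% for SOX2-ON, 75.8% for SOX2-OFF and 76.3% for CEpiLC. The median percentile of the members' strongest start peaks was 86.2, 88.9 and 87.2 in the same order, against 93.8, 93.8 and 93.4 over the coding genes with a start peak. The pathway's starts were thus marked in each state, at ranks mostly below those of a typical promoter.

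**Figure D1:**
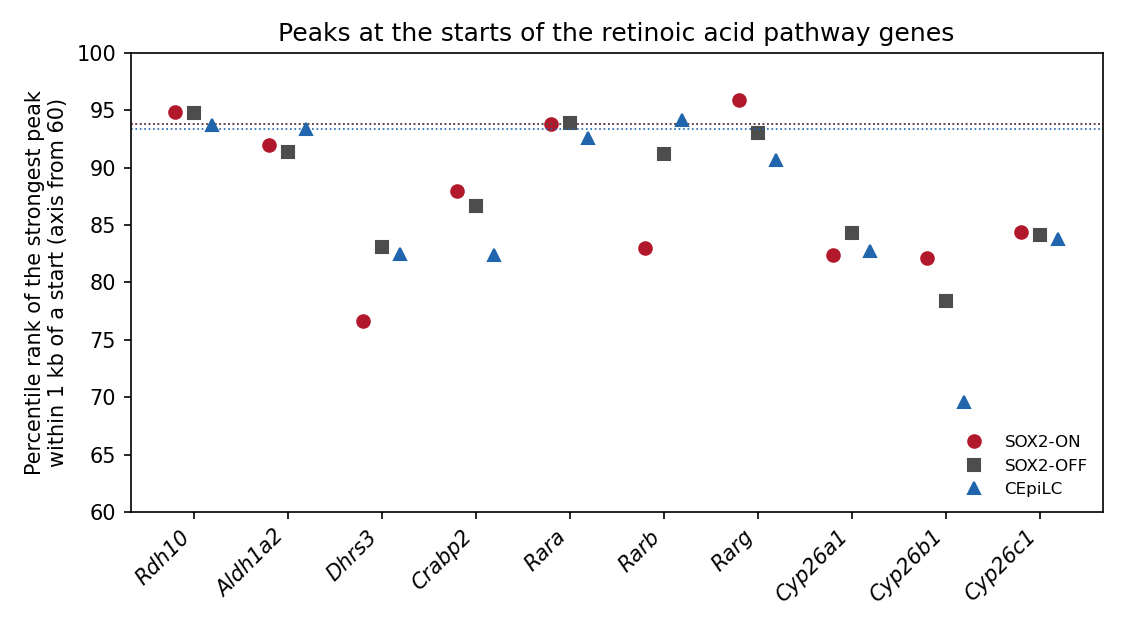
Percentile rank (vertical axis, from 60 to 100) of the strongest peak within 1 kb of a start of each gene, with 1 point per list and genes ordered from synthesis to degradation. Dotted lines are the medians over coding genes with a start peak (93.8, 93.8 and 93.4). Rarb is lowest in SOX2-ON at 83.0, and Cyp26b1 is lowest in CEpiLC at 69.6.

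Over the 178 regions, 68 were in all 3 lists, which is 38.2% (Wilson 95% interval 31.4 to 45.5, counting error over regions only), against 27.0% of all regions. CEpiLC alone held 35 regions, 19.7% against 20.3% of all regions, and SOX2-ON alone held 24, 13.5% against 16.9%. SOX2-OFF alone held 13, 7.30% against 15.1%. Both lists of the engineered line, without CEpiLC, held 19 regions, 10.7% against 10.5%. SOX2-OFF and CEpiLC together, without SOX2-ON, held 15, 8.43% against 6.92%. SOX2-ON and CEpiLC, without SOX2-OFF, shared 4, 2.25% against 3.28%. The intervals of the class in all 3 lists and of SOX2-OFF alone (4.32% to 12.1%) did not hold the share over all regions, and those of the other 5 classes did.

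Starts made up much of the class in all 3 lists. Of the 68 regions in all 3 lists, 35 lay within 1 kb of a coding start, 51.5% against 30.8% of all such regions. Many of these starts belong to neighbouring genes, since the windows of Crabp2, Rara and Rarg are crowded with promoters. Only 108 of the 178 regions had a member's start as their nearest coding start, and 33 of those 108, 30.6%, were in all 3 lists. Without chromosomes 6 and 11, 45 of 116 regions were in all 3 lists, 38.8% (30.4% to 47.9%) against 31.3% of all regions off chromosomes 6, 8 and 11, so the excess was then within counting error. SOX2-OFF alone held 8 of those 116, 6.90% against 13.3%.

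**Figure D2:**
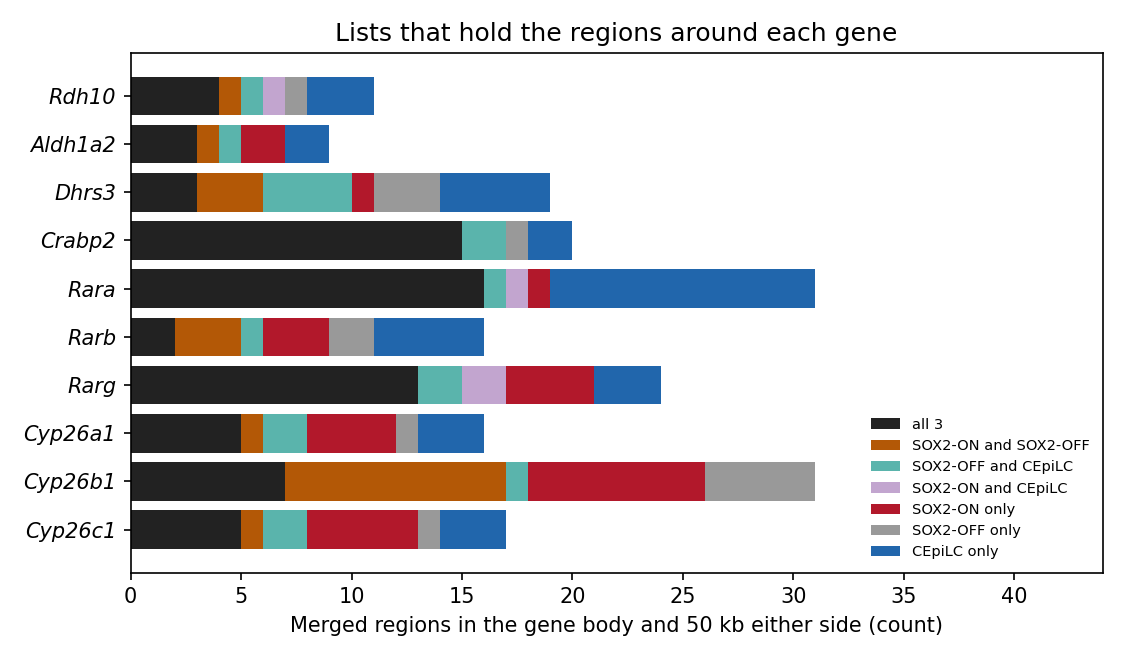
Number of merged regions (horizontal axis) in the window of each gene, coloured by the lists that hold a peak there. The 12 regions of CEpiLC alone around Rara and the 10 of the engineered line alone around Cyp26b1 sit on the chromosomes with an excess of peaks.

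Among the strongest 20000 peaks of each list, almost all of those around the pathway were also present elsewhere. A strong peak counted as missing when less than 10% of its length was covered by another list. Of 26 strong SOX2-ON peaks, 1 was missing from CEpiLC (3.85%, against 8.58% of all strong SOX2-ON peaks) and 0 from SOX2-OFF (against 5.04%). Of 31 strong SOX2-OFF peaks, 0 were missing from SOX2-ON (against 1.30%) and 0 from CEpiLC (against 1.06%). Of 31 strong CEpiLC peaks, 0 were missing from SOX2-ON (against 1.42%) and 0 from SOX2-OFF (against 0.620%). The Wilson interval for 1 of 26 runs from 0.682% to 18.9% and that for 0 of 26 reaches 12.9%, so the genome-wide shares lay within the intervals of these counts.

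In the synthesis group, Rdh10 on chromosome 1 (16105774 to 16133734) encodes the enzyme that makes retinaldehyde. Its start region was among the strongest of the members, at percentile 94.9 for SOX2-ON, 94.8 for SOX2-OFF and 93.7 for CEpiLC, and the start of Rpl7 lies under the same peak. Another region inside the gene, over the start of a transcript with a retained intron, stood at 85.7, 87.0 and 87.0. These promoter values were level across the lists.

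Away from the starts of Rdh10 the lists differed, in both directions. An intronic region 8785 bases downstream of the start (chr1:16114559-16117252) was absent from SOX2-ON and stood at percentile 80.4 in SOX2-OFF and 77.4 in CEpiLC, with fold enrichments of 2.23 and 2.07. An intergenic region 5725 bases upstream (chr1:16097357-16100049) stood at 40.1 for SOX2-ON, 62.1 for SOX2-OFF and 65.3 for CEpiLC. The bases covered there were 488 in SOX2-ON against 2429 in SOX2-OFF and 2002 in CEpiLC. Both of these regions were weaker or undetected in SOX2-ON. An intergenic region 39027 bases downstream (chr1:16169529-16170337) went the other way, at 64.2 in SOX2-ON and 51.9 in SOX2-OFF, and was absent from CEpiLC.

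Aldh1a2 on chromosome 9 (71215789 to 71296243) encodes the enzyme of the irreversible step. Its start stood at percentile 92.0 for SOX2-ON, 91.4 for SOX2-OFF and 93.4 for CEpiLC, with fold enrichments of 4.14, 3.21 and 3.02. Beyond the start, the gene's introns carried a pair of SOX2-ON peaks. The region 16038 bases downstream (chr9:71231827-71232284), whose central bases are printed above, stood at percentile 82.0 in SOX2-ON with a fold enrichment of 2.77, and was in neither other list. The region 11428 bases downstream (chr9:71227217-71227885) stood at 79.9 in SOX2-ON and 37.6 in SOX2-OFF, and was absent from CEpiLC. Both intronic sites thus had their highest rank in SOX2-ON, while the promoter did not move with them.

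Dhrs3 on chromosome 4 (144892827 to 144928209) encodes the reductase that opposes RDH10 and is itself raised by retinoic acid in many tissues. A broad region over its start stood at percentile 76.6 for SOX2-ON, 83.1 for SOX2-OFF and 82.5 for CEpiLC. Its peaks covered 3932, 4100 and 3593 bases in the same order. SOX2-ON had 7 peaks in its window, SOX2-OFF had 13 and CEpiLC had 15. The strongest region that SOX2-ON lacked was 28664 bases downstream (chr4:144947543-144950498), at 47.5 in SOX2-OFF and at 74.9 in CEpiLC. The other regions it lacked stood at 42.5 or below.

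Crabp2 on chromosome 3 (87948666 to 87953376) encodes the binding protein that delivers retinoic acid to the receptors. The region over its first start stood at percentile 71.2 for SOX2-ON, 75.2 for SOX2-OFF and 80.9 for CEpiLC, and its covered length was 1845, 2707 and 4003 bases. By −log10 p, the region inside the gene went the other way, at 88.0, 86.7 and 82.4. By fold enrichment, both regions were instead highest in SOX2-ON and lowest in CEpiLC. Those percentiles were 53.1 in SOX2-ON and 48.5 in CEpiLC at the first start, and 84.8 and 65.7 inside the gene. An intergenic region 7431 bases downstream was strong in every list, at 94.5, 92.7 and 94.4. A weaker intergenic region 10298 bases downstream (chr3:87962442-87962794) was absent from SOX2-ON and stood at 64.4 in SOX2-OFF and 69.4 in CEpiLC. Of the 20 regions in the window, 15 were in all 3 lists, and most of those had their nearest start at Hdgf, Mrpl24, Rrnad1, Nes or Bcan.

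Among the receptors, Rarb on chromosome 14 (16430839 to 16819156, minus strand) held the single strong peak around any member that another list lacked, and its promoter differed in rank too. The start that carries the DR5 (chr14:16574935-16575896) stood at percentile 83.0 for SOX2-ON, 91.2 for SOX2-OFF and 94.2 for CEpiLC. Fold enrichments there were 2.69, 3.75 and 3.48, and percentiles by fold enrichment were 84.0, 96.3 and 97.5. The other annotated starts of Rarb (16819005 and 16819156), far upstream, had no peak within 1 kb in any list. Of the annotated starts of Rarb, those of the downstream promoter were thus the ones with a peak, and their rank was lowest in SOX2-ON.

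Inside Rarb, 1579 bases downstream of the nearest annotated start, the intronic region printed above (chr14:16572607-16573466) went in the opposite direction. It ranked 15729 in SOX2-ON, at percentile 87.9 with a fold enrichment of 3.33. In SOX2-OFF it stood at percentile 19.0 with a fold enrichment of 1.49 and 320 covered bases against 860, and in CEpiLC it was absent. Ordered by fold enrichment in place of −log10 p, it stood at 89.5 in SOX2-ON and 23.7 in SOX2-OFF. The printed bases of the region contained a match to the SOX motif, one to TCF/LEF and one to GATA.

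The reverse pattern was seen further along. Deep in the gene, 127076 bases from the start (chr14:16447348-16447969), a peak was absent from SOX2-ON and stood at percentile 74.2 in SOX2-OFF and 83.1 in CEpiLC. A region at the 3′ end of Rarb, where an exon of Top2b is also annotated (chr14:16433919-16435339), went the other way and stood at 91.7 for SOX2-ON, 77.1 for SOX2-OFF and 69.8 for CEpiLC. Apart from the 2 intronic regions above, those of Rarb stood at percentile 62.0 or below, the highest being one in SOX2-ON alone (chr14:16695590-16696207), and the window as a whole had 1.64 peaks per 100 kb in each list.

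**Figure D3:**
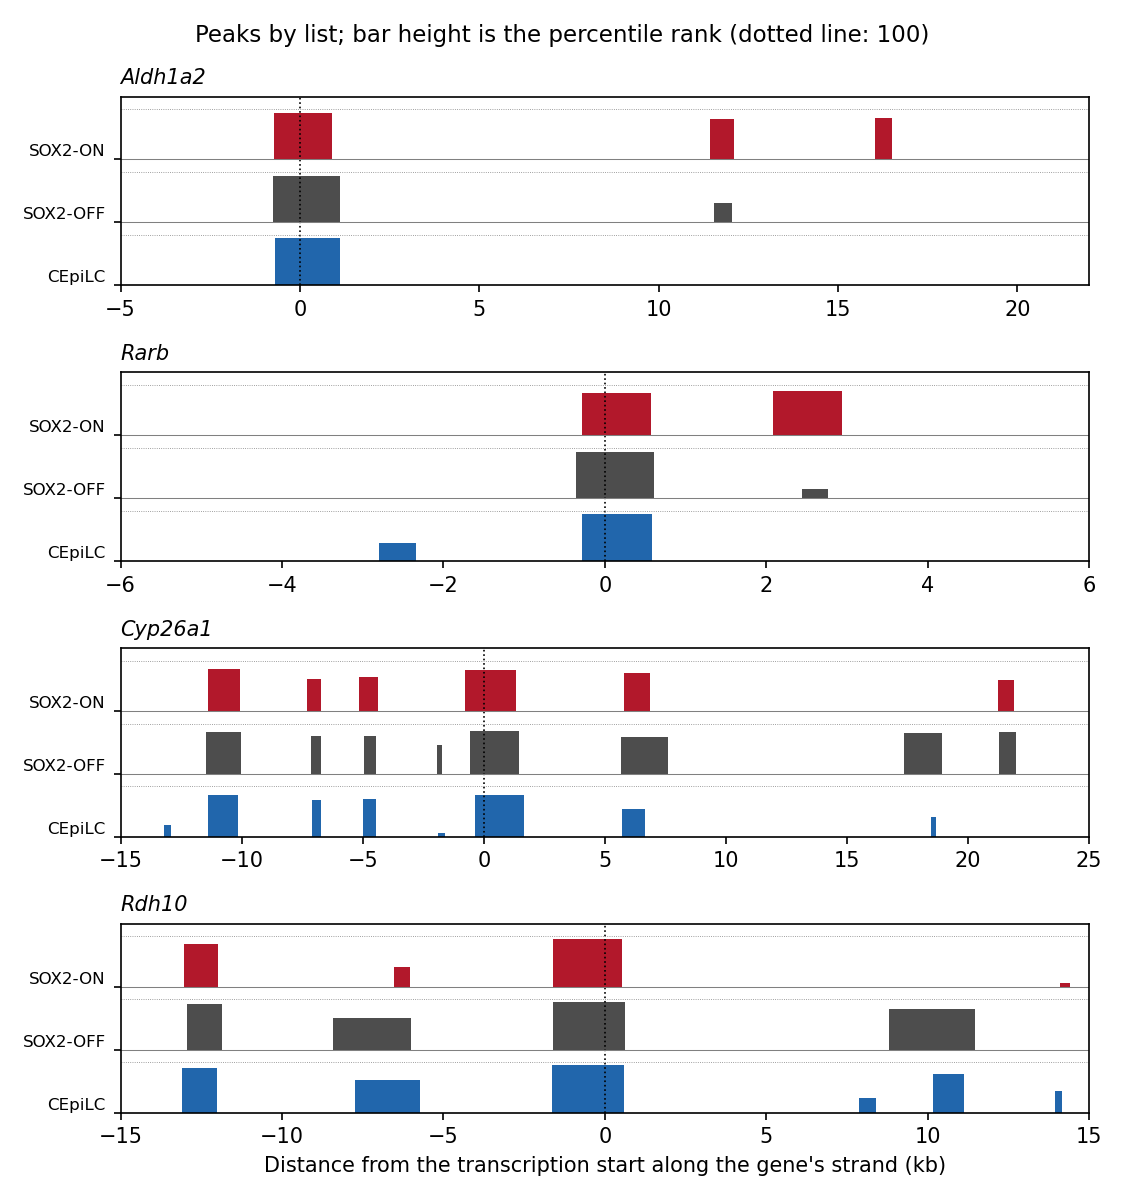
Peaks of each list around the starts of Aldh1a2, Rarb, Cyp26a1 and Rdh10, with distance from the start along the gene's strand in kb on the horizontal axis and bar height as percentile rank within the list. The intronic peaks of SOX2-ON in Aldh1a2 (82.0) and Rarb (87.9) are low or missing below them, and the Rdh10 intron peak (80.4 and 77.4) is missing from SOX2-ON.

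Rara on chromosome 11 (98927818 to 98974942) encodes the receptor that is expressed most broadly. Its main start stood at percentile 93.8 for SOX2-ON, 93.9 for SOX2-OFF and 92.6 for CEpiLC. The start inside the gene whose region holds a DR5 stood at 87.8, 86.6 and 88.0, and the most upstream start at 56.2, 64.5 and 61.2. By −log10 p, the main start and the start inside the gene were close to level, and the most upstream start was lowest in SOX2-ON. By fold enrichment the most upstream start was instead highest in SOX2-ON, at percentiles of 32.7, 20.6 and 0.269.

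The region just upstream of Rara was not level. At 1134 bases from a Rara start (chr11:98924832-98926684), the percentile was 58.4 for SOX2-ON, 86.9 for SOX2-OFF and 93.2 for CEpiLC, with fold enrichments of 1.60, 2.08 and 2.12. By fold enrichment the percentiles there were 37.9, 79.4 and 82.7. A region over an exon of the neighbouring Wipf2 (chr11:98902423-98903187) stood at 49.0, 79.6 and 89.6. Both regions are on chromosome 11, where CEpiLC had an excess of peaks, against 59.6 per Mb in SOX2-ON and 61.1 in SOX2-OFF. The part of that excess in the differences between CEpiLC and the other lists was not tested. Of the 31 regions in the window, CEpiLC alone held 12, 38.7%, against 59.9% of all regions of chromosome 11.

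Rarg on chromosome 15 (102234938 to 102257517, minus strand) encodes the receptor most associated with the caudal epiblast. Its strongest start stood at percentile 95.9 for SOX2-ON, 93.0 for SOX2-OFF and 90.7 for CEpiLC. The start at the upstream end of the gene stood at 89.8, 91.7 and 89.4, and the one closest to its 3′ end at 78.1, 68.9 and 84.2. Between them, an intronic region 626 bases from a start (chr15:102249023-102249720) was absent from SOX2-ON and stood at 68.2 in SOX2-OFF and 72.0 in CEpiLC.

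Of the degrading enzymes, Cyp26a1 on chromosome 19 (start at 37697798) is the one most sharply induced by retinoic acid. Its start region, which holds the proximal DR5, stood at percentile 82.4 for SOX2-ON, 84.3 for SOX2-OFF and 82.7 for CEpiLC. Fold enrichments were 2.40, 2.13 and 2.05. The rank of the Cyp26a1 start was therefore similar in the 3 lists.

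The region of the distal DR5 (chr19:37695853-37696207) was absent from SOX2-ON. It stood at percentile 56.8 in SOX2-OFF with a fold enrichment of 1.47 and at 7.77 in CEpiLC, so it was a weak call in both. On the other side of the gene, a region 17059 bases downstream (chr19:37715144-37716707) was absent from SOX2-ON and stood at 80.4 in SOX2-OFF and 39.9 in CEpiLC. A region 20953 bases downstream (chr19:37719038-37719784) stood at 62.4 in SOX2-ON and 82.8 in SOX2-OFF and was absent from CEpiLC. SOX2-OFF thus had the highest rank at all 3 of these regions.

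Cyp26c1, the neighbour of Cyp26a1 on the same strand, had no peak on its annotated start. The nearest region in all 3 lists lay 742 bases downstream, over an exon, at percentile 84.4 for SOX2-ON, 84.1 for SOX2-OFF and 83.8 for CEpiLC. Further upstream, within introns of Exoc6, SOX2-ON alone had a region 28765 bases from the start (chr19:37656392-37656816) at 71.6 with a fold enrichment of 2.18.

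Cyp26b1 on chromosome 6 (84571414 to 84593908, minus strand) had its start region at percentile 82.1 for SOX2-ON, 78.4 for SOX2-OFF and 69.6 for CEpiLC, with 3356, 3532 and 3204 covered bases. Its outer starts, upstream of this one, had a peak within 1 kb in SOX2-ON alone, at 34.3. A region 7077 bases upstream (chr6:84600985-84601831) stood at 61.6, 87.0 and 75.7, highest in SOX2-OFF. A region 21042 bases upstream (chr6:84614950-84617001) stood at 53.8, 20.1 and 68.0, lowest in SOX2-OFF. Another, 43831 bases downstream (chr6:84543474-84543849), stood at 69.0 in SOX2-ON and 75.7 in SOX2-OFF and was absent from CEpiLC. Of the 31 regions in the window, 10 were in both lists of the engineered line without CEpiLC, 32.3% against 27.8% of all regions of chromosome 6, and 0 were in CEpiLC alone, against 2.45%. Per 100 kb of the window, SOX2-ON had 20.4 peaks, SOX2-OFF 18.8 and CEpiLC 7.35. This excess moved with the chromosome and its part in the differences at Cyp26b1 was not tested.

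Ranks were compared for the 68 regions held in all 3 lists. A shift was counted at 20 percentile points. SOX2-OFF ranked higher than SOX2-ON at 4 regions (5.88%, against 13.6% of all regions in all 3 lists), and SOX2-ON ranked higher at 1 (1.47%, against 6.31%). CEpiLC ranked higher than SOX2-ON at 7 (10.3%, against 15.1%), and SOX2-ON ranked higher than CEpiLC at 4 (5.88%, against 10.1%). SOX2-OFF ranked higher than CEpiLC at 2 (2.94%, against 10.7%), and CEpiLC ranked higher than SOX2-OFF at 2 (2.94%, against 7.42%). Each share was below that over all regions. The sets differ in make-up, with 51.5% of the member regions within 1 kb of a coding start against 30.8%. The part of this in the lower shares was not tested. The balance between SOX2-OFF and SOX2-ON was even, 3 against 3, when regions were ranked among those in all 3 lists, and 1 against 1 at 30 points. The balance between SOX2-ON and CEpiLC depended on the ordering and on the chromosomes used. By fold enrichment, SOX2-ON ranked higher at 11 regions and CEpiLC at 7. By −log10 p without chromosomes 6 and 11, the counts were 3 and 2. Shares over all regions under these alternatives are not given, so these counts cannot be read as particular to the members.

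The median difference was small as well. CEpiLC stood 2.59 points above SOX2-ON at the median member region, against 1.59 over all regions in all 3 lists, and SOX2-OFF stood 1.11 points above SOX2-ON, against 1.82. Away from chromosomes 6 and 11, SOX2-OFF ranked at least 20 points above SOX2-ON at 1 region, the one upstream of Rdh10, and SOX2-ON above SOX2-OFF at 0. The largest shifts were therefore mostly those of Cyp26b1 and Rara. Among them, the region at chr6:84614950-84617001, 21042 bases upstream of a Cyp26b1 start, stood at 53.8 for SOX2-ON, 20.1 for SOX2-OFF and 68.0 for CEpiLC. The region near Rarg over an exon of Zfp740 (chr15:102214129-102215075) stood at 59.8, 52.7 and 28.7. Of the regions in all 3 lists, SOX2-ON ranked furthest above CEpiLC, by 33.4 points, downstream of Cyp26b1 (chr6:84565254-84565714). CEpiLC ranked 27.0 points above SOX2-OFF over an exon of Cdc6 near Rara (chr11:98921939-98922702). That shift was not seen by fold enrichment, where the percentiles were 30.2 for SOX2-ON, 1.37 for SOX2-OFF and 2.58 for CEpiLC. SOX2-OFF ranked 20.2 points above CEpiLC over an exon of Bcan near Crabp2 (chr3:87993188-87994083).

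**Figure D4:**
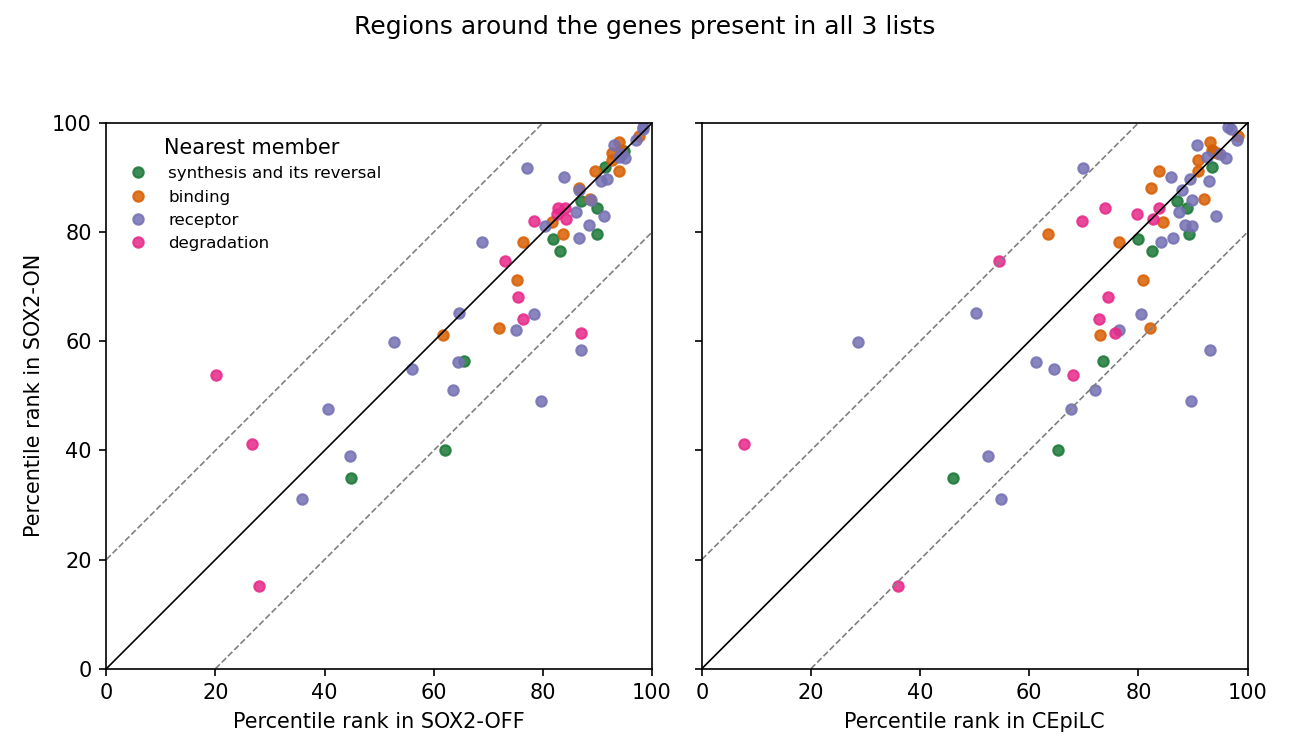
Percentile rank in SOX2-ON (vertical axes) against SOX2-OFF and CEpiLC (horizontal axes) for the 68 regions in all 3 lists, coloured by the role of the member with the nearest start. The solid line is equal rank and the dashed lines mark 20 points. Most points lie between them, with 1 above and 4 below in the left panel.

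Widths were compared as covered bases, after division by the median ratio over all regions in all 3 lists, and called at 1.5 times. In either direction, SOX2-ON and SOX2-OFF differed at 13 regions (19.1%, against 32.8% of all regions in all 3 lists). SOX2-ON and CEpiLC differed at 18 (26.5%, against 38.8%), and SOX2-OFF and CEpiLC at 13 (19.1%, against 35.9%). The lower shares came mostly from one direction of each pair. SOX2-OFF was wider than SOX2-ON at 5 regions (7.35%, below its share over all regions), SOX2-ON wider than CEpiLC at 7 (10.3%, against 22.1%) and SOX2-OFF wider than CEpiLC at 6 (8.82%, against 24.4%). In the opposite directions, SOX2-ON was wider than SOX2-OFF at 8 (11.8%, against 11.8%), CEpiLC wider than SOX2-ON at 11 (16.2%, against 16.7%) and CEpiLC wider than SOX2-OFF at 7 (10.3%, against 11.5%). Broad calling joins neighbouring sites, so widths are approximate.

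In the central 200 bases of the 178 regions, no direct repeat of the hexamer with a spacing of 5, 2 or 1 was found, against 0.0765%, 0.206% and 0.155% of all regions. The SOX motif was in 11 (6.18%, against 8.61%), TCF/LEF in 16 (8.99%, against 7.56%), the T motif AGGTGTGA in 3 (1.69%, against 1.09%), CDX (TTTATGG, with the variant TTTATTG) in 2 (1.12%, against 5.20%) and GATA in 18 (10.1%, against 9.73%). The SOX and TCF/LEF motifs share the letters CAAAG when read on opposite strands. Apart from CDX, whose interval of 0.309% to 4.00% lay below the share over all regions, the intervals of these motifs held the share over all regions. Over whole regions CDX was in 31 (17.4%, against 18.9%), with an interval of 12.5% to 23.7% that held the share over all regions.

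A further 10 genes of the pathway were looked at in the same way: the synthesis genes Aldh1a1 and Aldh1a3, Lrat, which stores retinol as esters, the partner receptors Rxra, Rxrb and Rxrg, the binding proteins Crabp1 and Fabp5, the uptake receptor Stra6, and the corepressor Ncor1. All 10 had a peak within 1 kb of a start in every list. Their windows held 210 regions, of which 62 (29.5%) were in all 3 lists and 67 (31.9%) in CEpiLC alone. Of the latter, 40 were around Ncor1 on chromosome 11.

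Among the strongest 20000 peaks of each list, 2 around these genes were missing from both other lists. A region near Rxrg (chr1:167602467-167603510), was one, at rank 15115 in SOX2-ON with a fold enrichment of 3.08. A region near Ncor1 (chr11:62277963-62278437), was the other, at rank 17321 in CEpiLC, on the chromosome with the excess in CEpiLC. Each was 1 of 23 strong peaks of its list around these genes, 4.35%. Over all strong peaks, SOX2-OFF lacked 5.04% and CEpiLC 8.58% of those of SOX2-ON. SOX2-ON lacked 1.42% and SOX2-OFF 0.620% of those of CEpiLC. Of the regions in all 3 lists, CEpiLC ranked at least 20 points above SOX2-ON at 11 of 62 (17.7%, against 15.1% of all regions) and SOX2-ON above CEpiLC at 4 (6.45%, against 10.1%). SOX2-OFF ranked above SOX2-ON at 7 (11.3%, against 13.6%) and SOX2-ON above SOX2-OFF at 5 (8.06%, against 6.31%).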

How the data were processed

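ATAC-seq was carried out on 1 sample each of SOX2-ON, SOX2-OFF and CEpiLC, grouped by genotype and by doxycycline, as labelled. Through nf-core/atacseq, the authors used Trim Galore for trimming, BWA for alignment to mm10 and MACS for broad peaks of each sample, after mitochondrial reads were discarded. The settings for the shift of cut sites are not given in the sources used here. The deposited fold enrichment of a peak is a ratio to the caller's local background, and the deposited −log10 p and −log10 q come from the same caller. The deposited score was not used. Total read counts were not given, so the depth is unknown.

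The member genes and all lists, motifs and thresholds were chosen with earlier results of these data known. Genes and starts were those of GENCODE M21, and sequences were read from GRCm38, the build of mm10, with samtools 1.23.1, Python 3.11.15, numpy 2.4.6 and pandas 2.3.3. The mm10 coordinates of all peaks lay within the ends of the GRCm38 chromosomes. Overlapping peaks (at least 1 base) were merged, and the strongest peak of a list in a region gave its rank. Named regions were those at a start of a member, strong regions that a list lacked, the 2 largest rank shifts for each pair of lists in each direction and those with a DR5. The regions with peaks among the strongest 50000 of a list, the other regions of the locus descriptions and the intron sequences were named after their values were seen. Wilson 95% intervals cover counting error only. Some of the further pathway genes chosen at the start are not reported here. Each group had 1 sample, so no test was run. Functions were tested on simulated data. Alternatives varied the window, the q limit, the overlap, the definitions of strong and shifted, and the chromosomes used.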

Additional observations from a re-analysis of the deposited data

How the results depend on the processing

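No paired analysis was possible because no group held more than 1 sample, and no replicate could be left out. Of 141 alternative values for 36 results, 74 stayed within the interval or within 1.5 times the value given above and 67 did not. The share of member regions in all 3 lists was 48.2% with windows of 10 kb and 30.6% for regions nearest to a member's start. It was 54.4% at a −log10 q of at least 2 and 62.1% at 5. Shares over all regions at these settings are not given, so these values cannot be read as particular to the members. The limit of 5 left 44 of 126 CEpiLC member peaks, against 57 of 115 in SOX2-ON and 60 of 115 in SOX2-OFF. At a −log10 q of at least 2, SOX2-ON with CEpiLC held 0.877% and CEpiLC alone 7.89%. At 5, SOX2-OFF with CEpiLC held 4.55%, SOX2-ON with CEpiLC 0%, SOX2-ON alone 9.09% and CEpiLC alone 0%. For regions nearest to a member's start, the engineered line without CEpiLC held 17.6%.

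Strong SOX2-ON peaks missing from CEpiLC numbered 0 among the strongest 10000, where the Rarb intron region no longer counts as strong, and 2 by fold enrichment. Among the strongest 50000, SOX2-OFF lacked 3 and CEpiLC 8 of SOX2-ON, SOX2-ON lacked 5 and CEpiLC 2 of SOX2-OFF, and SOX2-ON lacked 6 and SOX2-OFF 1 of CEpiLC. Shares of all such peaks were 15.9%, 24.0%, 9.43%, 11.2%, 15.7% and 9.53% in the same order. With missing set at under 50% covered, 1 strong SOX2-ON peak was missing from SOX2-OFF. By fold enrichment, 1 SOX2-ON peak was missing from SOX2-OFF, 1 SOX2-OFF peak from CEpiLC and 1 CEpiLC peak from SOX2-ON.

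For rank shifts, ordering by fold enrichment gave 2 regions higher in SOX2-ON than in SOX2-OFF, 11 higher in SOX2-ON than in CEpiLC and 9 higher in SOX2-OFF than in CEpiLC. Ranking within regions of all 3 lists gave 3 higher in SOX2-ON than in SOX2-OFF and 3 lower, 7 higher in SOX2-ON than in CEpiLC, 4 higher in CEpiLC than in SOX2-ON and 4 higher in CEpiLC than in SOX2-OFF. So at 20 points and over all chromosomes, more member regions were higher in SOX2-ON than in CEpiLC under either ordering. By −log10 p over whole lists, more were higher in CEpiLC at that setting. The cause was not tested. Shares over all regions are not given for the rank-shift alternatives here, so the counts describe the members only. At 10 points, 3 were higher in SOX2-ON than in SOX2-OFF and 10 lower, 8 higher in SOX2-ON than in CEpiLC and 17 lower, and 6 higher in SOX2-OFF than in CEpiLC and 6 lower. At 30 points, 1 was higher in SOX2-OFF than in SOX2-ON and 1 lower, so the balance of 4 against 1 at 20 points was even here and when ranking within regions of all 3 lists. Also at 30 points, 2 were higher in SOX2-ON than in CEpiLC, 2 in CEpiLC than in SOX2-ON, 0 in SOX2-OFF than in CEpiLC and 1 in CEpiLC than in SOX2-OFF. Without chromosomes 6 and 11, by −log10 p at 20 points, 3 were higher in SOX2-ON than in CEpiLC and 2 in CEpiLC than in SOX2-ON. At the same setting, 0 were higher in SOX2-ON than in SOX2-OFF, 1 in SOX2-OFF than in SOX2-ON and 0 in CEpiLC than in SOX2-OFF.

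At a width ratio of 2, SOX2-ON and SOX2-OFF differed at 5 regions, SOX2-ON and CEpiLC at 8 and SOX2-OFF and CEpiLC at 5. Without chromosomes 6 and 11, where fewer regions were left, SOX2-OFF differed from SOX2-ON at 7 and from CEpiLC at 7. Shares over all regions at these width settings are not given either. The peaks around members in SOX2-ON, SOX2-OFF and CEpiLC numbered 57, 60 and 70 with windows of 10 kb, 192, 210 and 222 with windows of 100 kb, and 57, 60 and 44 at a −log10 q of at least 5, and CEpiLC had 82 at 2. Searching whole regions found DR5 in 4, DR2 in 3, SOX in 43, TCF/LEF in 49, T in 10, CDX in 31 and GATA in 63. Of these, only the DR5 share (2.25%, interval 0.877% to 5.63%, against 0.362%) had an interval that did not hold the share over all regions. With classic targets of the receptors among the members, that contrast is no test of enrichment.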
